A study of Mus musculus with 6 samples.

Results

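The Vps10 domain sorting receptors are the 5 genes Sort1, Sorl1, Sorcs1, Sorcs2 and Sorcs3, measured here by bulk RNA-seq of newborn mouse cortex with and without Fezf2. Each was found as the 1 row of the deposited table of 23016 rows that carries its symbol, and 5 of 5 passed the filter on low values, as did 17557 rows in all. The family was chosen by its gene names and with the measured Fezf2 KO and wild type values of these libraries already known, so its contrast between genotypes is given as a description.

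Cerebral cortex came from 3 Fezf2 KO pups (Fezf2-/-) and 3 wild type pups (Fezf2+/+) at postnatal day 0, born to crosses of Fezf2+/- mice, with 1 library per brain. Libraries 1 and 2 of each genotype came from litter m1 and library 3 from litter m2. Fezf2 codes for a transcription factor that specifies the deep-layer projection neurons of the cortex. Its own counts were 1989, 1377 and 1533 in the Fezf2 KO brains, against 5030.3, 5928 and 5396 in the wild type brains, and the sources used here do not say which part of the gene is missing.

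Values are normalised read counts, that is, the reads of a gene over the size factor of its library, from libraries of 44978380 to 52872577 recovered gene reads. Where 3 values are given for a genotype, they are libraries 1, 2 and 3 in turn. Cortical markers were abundant in every library, with 8 of them summing to between 130007 and 148674 in Fezf2 KO cortex and between 119486 and 132104 in wild type cortex. Fezf2 KO 1 stood apart through choroid plexus RNA, with 9711 summed over 5 markers against 129 and 133 in the other Fezf2 KO libraries and 61.9 to 128.2 in wild type. Most of that sum was Ttr, at 8950, 65.6 and 68.0 in the Fezf2 KO brains, against 9.45 to 15.7 in wild type. Folr1, Clic6 and Aqp1 were also highest in Fezf2 KO 1 (283, 227 and 231). Kl was at 19.5 there, against 13.1 to 19.2 in wild type. Summed over 13 striatal markers, the libraries held 3828, 10034 and 5548 in the Fezf2 KO brains, against 9652 to 13723 in wild type. None of these markers was at 0 in any library. In bulk tissue, fewer cells of a type and less RNA per cell cannot be told apart.

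Vps10 domain receptors are membrane proteins named after a yeast sorting receptor. They bind cargo through a shared luminal domain and carry it between the Golgi, endosomes and the cell surface, guided by adaptors that read their short cytoplasmic tails. Sort1 encodes sortilin, which binds progranulin and, together with the neurotrophin receptor p75NTR, the uncleaved precursors of neurotrophins. Sorl1 encodes SorLA, which carries the amyloid precursor protein away from the enzymes that cleave it. Sorcs1, Sorcs2 and Sorcs3 encode the SorCS receptors, which are prominent in neurons.

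Sorcs1 and Sorcs3 are neighbours among the protein-coding genes of chromosome 19, with 0 such genes between them in the GRCm38 gene order. Counting genes of any kind, 3 lie between them. The promoters of Sorcs1 and Sorcs3 are printed because Sorcs1 passed the test between genotypes and its neighbour Sorcs3 did not. Whether the genes differ from each other in this was not tested. Each window runs from 250 bases before to 50 bases after a RefSeq start (build GRCm38.p6), in the direction of the gene. Sorcs1 lies on the minus strand (chr19:50678597-50678896) and Sorcs3 on the plus strand (chr19:48205775-48206074). Capitals mark the GC box GGGCGG and the CCAAT box CCAAT, each searched on both strands.
Sorcs1: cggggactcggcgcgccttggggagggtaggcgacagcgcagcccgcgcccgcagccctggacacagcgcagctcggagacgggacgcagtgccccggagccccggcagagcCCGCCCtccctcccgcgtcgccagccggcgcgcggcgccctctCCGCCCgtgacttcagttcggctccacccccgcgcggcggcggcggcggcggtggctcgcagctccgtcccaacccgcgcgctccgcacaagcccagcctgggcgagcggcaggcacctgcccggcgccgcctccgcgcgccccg
Sorcs3: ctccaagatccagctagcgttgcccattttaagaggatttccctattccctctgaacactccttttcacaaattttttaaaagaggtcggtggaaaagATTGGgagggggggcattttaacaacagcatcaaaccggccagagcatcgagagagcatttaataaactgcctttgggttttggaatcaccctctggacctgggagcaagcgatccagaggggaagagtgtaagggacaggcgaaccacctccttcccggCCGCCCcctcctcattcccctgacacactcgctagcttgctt
The Sorcs1 window was 80.7% G and C and held 50 CpG dinucleotides, a number reached by 0.9% of the 32851 promoters in the table. The Sorcs3 window was 51.0% G and C and held 9 CpG dinucleotides, a number reached by 45.8% of promoters. The median promoter was 52.7% G and C with 7 CpG dinucleotides. A GC box was found 2 times in the Sorcs1 window and 1 time in the Sorcs3 window, and at least 1 is present in 35.7% of all promoters. A CCAAT box was found in the Sorcs3 window and not in these letters of the Sorcs1 window, against 37.4% of all promoters. Neither window held TATAAA (13.6% of promoters) or the E-box CACGTG (7.2% of promoters). Sorl1 also has entries in the table, 3 of the 5 members in all.

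Sort1 was by far the most abundant member in both genotypes once counts were divided by transcript length (longest protein-coding transcript of each gene in GENCODE M21). Its level was 1555 ± 49.8 counts per kilobase in Fezf2 KO cortex and 1480 ± 75.5 in wild type cortex (SD, n = 3 each, as for the levels that follow). Sorcs2 came next, at 426 ± 39.9 per kilobase in Fezf2 KO cortex and 360 ± 24.3 in wild type cortex. Sorl1 followed, with 225 ± 29.2 per kilobase in Fezf2 KO cortex and 202 ± 32.7 in wild type cortex. The ranges of these 3 genes did not overlap one another within either genotype.

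The low end of the order differed between genotypes. Sorcs1 had 91.5 ± 6.45 counts per kilobase in Fezf2 KO cortex and 167 ± 16.7 in wild type cortex, and Sorcs3 had 126.9 ± 28.4 and 127.8 ± 11.9 in the same order. Sorcs1 was therefore the lowest of the 5 in Fezf2 KO cortex, just under the range of Sorcs3 (84.1 to 95.7 against 96.9 to 153 per kilobase). In wild type cortex it lay above Sorcs3 (151 to 185 against 114 to 137) and overlapped Sorl1 (164 to 224), so Sorl1 and Sorcs1 were not separated there. Per kilobase of coding sequence the order of Sorl1 and Sorcs1 in wild type cortex turned round, and in Fezf2 KO cortex Sorcs1 (170 to 194) lay within the range of Sorcs3 (149 to 236).

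**Figure D1:**
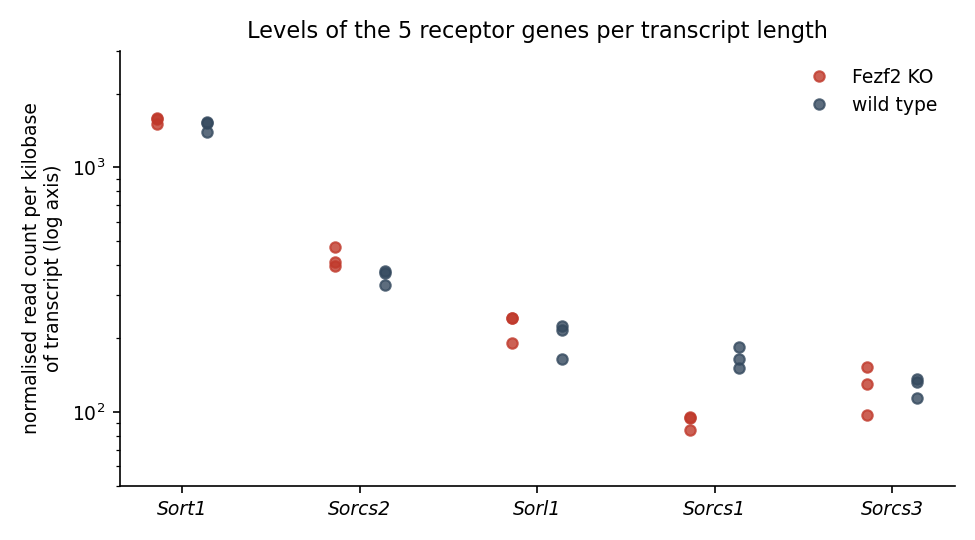
Normalised read count per kilobase of transcript (log axis) for each receptor gene, with 1 point per library and Fezf2 KO left of wild type. Sort1 lies between 1393 and 1593 in all 6 libraries, and Sorcs1 is the lowest gene in Fezf2 KO cortex, at 84.1 to 95.7.

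Sorcs1 fell in Fezf2 KO cortex. SorCS1 is a neuronal receptor known for sorting neurexin and AMPA receptors. Its counts were 609, 686 and 693 in the Fezf2 KO brains, against 1097, 1190.2 and 1337 in the wild type brains. The highest Fezf2 KO library lay well below the lowest wild type library. The mean was 663 ± 46.7 in Fezf2 KO cortex and 1208 ± 121 in wild type cortex (SD, n = 3 each), a log2 ratio of Fezf2 KO to wild type of -0.86 (SE 0.095, 95% interval -1.08 to -0.64), or 0.550 times the wild type level. In the limma fit over all 17557 genes its adjusted p was 0.00594, where 125 genes (0.712%) passed at 0.05 and 54 (0.308%) passed as lower. It was the 1 member of 5 to pass by limma, by edgeR (0.689% of genes passed) and by DESeq2 (2.3% of genes passed). These counts describe a family that was chosen with its values known. Among the 54 falls, 35 were larger than that of Sorcs1.

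The fall of Sorcs1 was seen in both litters and without each library. The log2 ratio was -0.82 within litter m1 (2 libraries per genotype) and -0.95 within litter m2 (1 per genotype). Leaving out 1 library at a time gave -0.93 to -0.79, with limma adjusted p from 0.0127 to 0.0334. Without Fezf2 KO 1, the library with the most choroid plexus RNA, the log2 ratio was -0.80 (limma adjusted p = 0.018). In litter m1 alone the limma adjusted p was 0.0900, so the call was lost with 4 libraries. Of the 13 striatal markers 0 passed by limma (11 with an unadjusted p under 0.05, 0 by edgeR, 1 by DESeq2), at a median log2 ratio of -1.34. Their sum in Fezf2 KO 2 (10034) lay within the wild type range, where Sorcs1 stood at 686. Astrocyte markers, of which 0 of 7 passed by limma (2 with an unadjusted p under 0.05, 0 by edgeR and 0 by DESeq2), summed to 14952 to 17367 in Fezf2 KO cortex, against 18048 to 18142 in wild type cortex. Of 8 subplate markers 4 were lower (Cplx3, Nxph4, Tmem163 and Ctgf) and 0 higher by limma, with 6 at an unadjusted p under 0.05, 4 called by edgeR and 5 by DESeq2. Of the other 4, Lpar1 had a log2 ratio of -0.50, Kcnab1 of 0.09 and Moxd1 of 0.15. Nr4a2 lay between 7117 and 7521 in Fezf2 KO cortex, against 3348 to 5595 in wild type cortex (log2 ratio 0.64, limma adjusted p = 0.237). It made up most of the summed level in Fezf2 KO cortex, and the sums overlapped, at 10432 to 11028 in Fezf2 KO cortex and 9488 to 11806 in wild type cortex. The part of these cell types in the fall was not tested.

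An assembled transcript named linc-Sorcs1-AS, looked up for its name after the values were seen, was also lower in each Fezf2 KO library. It had 23.6, 26.9 and 24.7 counts in the Fezf2 KO brains, against 41.2, 49.7 and 54.1 in the wild type brains, so the genotypes did not overlap. Its log2 ratio was -0.91 (SE 0.191), and it did not pass (limma adjusted p = 0.103). As a share of the Sorcs1 count it stayed between 3.57% and 3.93% in Fezf2 KO cortex and between 3.75% and 4.18% in wild type cortex. The sources used here do not say whether reads were counted by strand, so those of Sorcs1 and of a transcript antisense to it cannot be told apart. It rests on 28 to 63 reads per library.

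Sorcs3, the neighbour of Sorcs1, did not pass the test. SorCS3 is a postsynaptic receptor that binds the adaptor PICK1. Its counts were 546, 864 and 735 in the Fezf2 KO brains, against 769, 747 and 644 in the wild type brains. Fezf2 KO 1 was the lowest and Fezf2 KO 2 the highest of the 6 libraries, so the Fezf2 KO values enclosed the wild type values. The log2 ratio was -0.03 (SE 0.161, 95% interval -0.40 to 0.34, limma adjusted p = 0.987). It was 0.15 without Fezf2 KO 1 and 0.02 without wild type 1, and -0.18 to -0.0027 without each of the other libraries. The interval spans 0.757 to 1.26 times the wild type level.

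**Figure D2:**
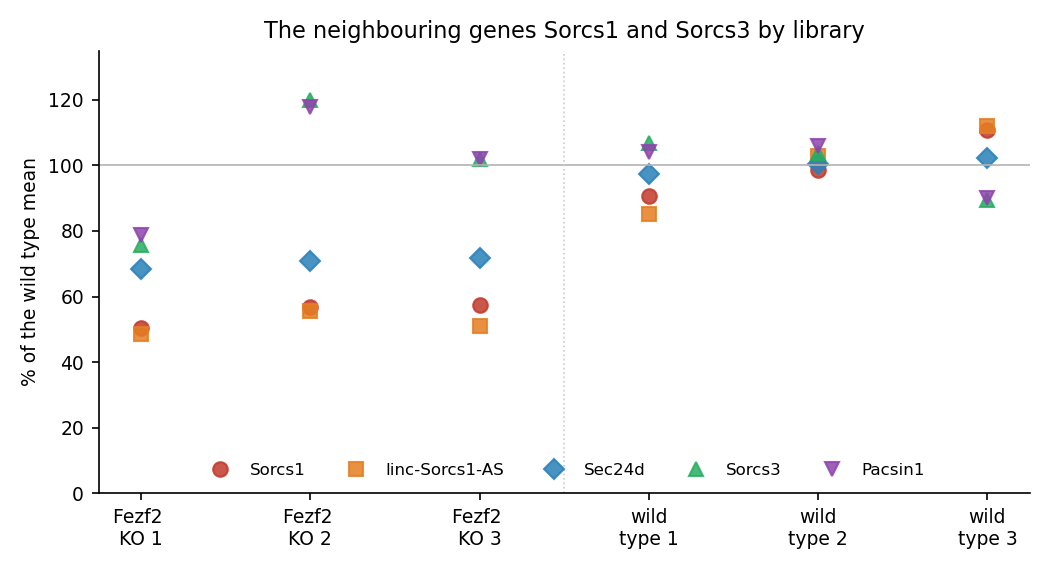
Each gene's count in each library as a percentage of its own wild type mean, for Sorcs1, linc-Sorcs1-AS and Sec24d and for Sorcs3 and Pacsin1, with the Fezf2 KO libraries on the left. Sorcs1 lies at 50.4 to 57.4% in Fezf2 KO cortex and at 90.8 to 110.7% in wild type cortex, while Sorcs3 spans 75.8 to 120.0% in Fezf2 KO cortex and 89.4 to 106.8% in wild type cortex.

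Sorcs2 was higher in each Fezf2 KO library than in any wild type library, but did not pass the test over all genes. SorCS2 pairs with p75NTR as a receptor for the uncleaved precursor of BDNF. Its counts were 2344, 2691 and 2261 in the Fezf2 KO brains, against 2144, 2119.5 and 1892 in the wild type brains. The nearest libraries of the genotypes were Fezf2 KO 3 at 2261 and wild type 1 at 2144. The log2 ratio was 0.24 (SE 0.083, 95% interval 0.05 to 0.43, unadjusted p = 0.0186, limma adjusted p = 0.375). An unadjusted p under 0.05 was reached by 9.03% of all genes tested. Sorcs1 and Sorcs2 were the 2 of 5 members whose genotypes did not overlap, as was so for 14.5% of all genes tested.

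Sort1 and Sorl1 overlapped between genotypes. Sort1 had 10888, 10760.3 and 10245 counts in the Fezf2 KO brains, against 10368, 10459.6 and 9523 in the wild type brains. Its log2 ratio was 0.07 (SE 0.051, limma adjusted p = 0.78), with a narrow 95% interval of -0.05 to 0.19, or 0.969 to 1.14 times the wild type level. Sorl1 had 2599, 2587 and 2052 counts in the Fezf2 KO brains, against 2319, 2403 and 1758 in the wild type brains. Its log2 ratio was 0.16 (SE 0.136, 95% interval -0.15 to 0.48, limma adjusted p = 0.84). Both were lowest, within each genotype, in the library of litter m2. The median log2 ratio of the 5 members was 0.07, beside 0.0025 over all genes tested.

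**Figure D3:**
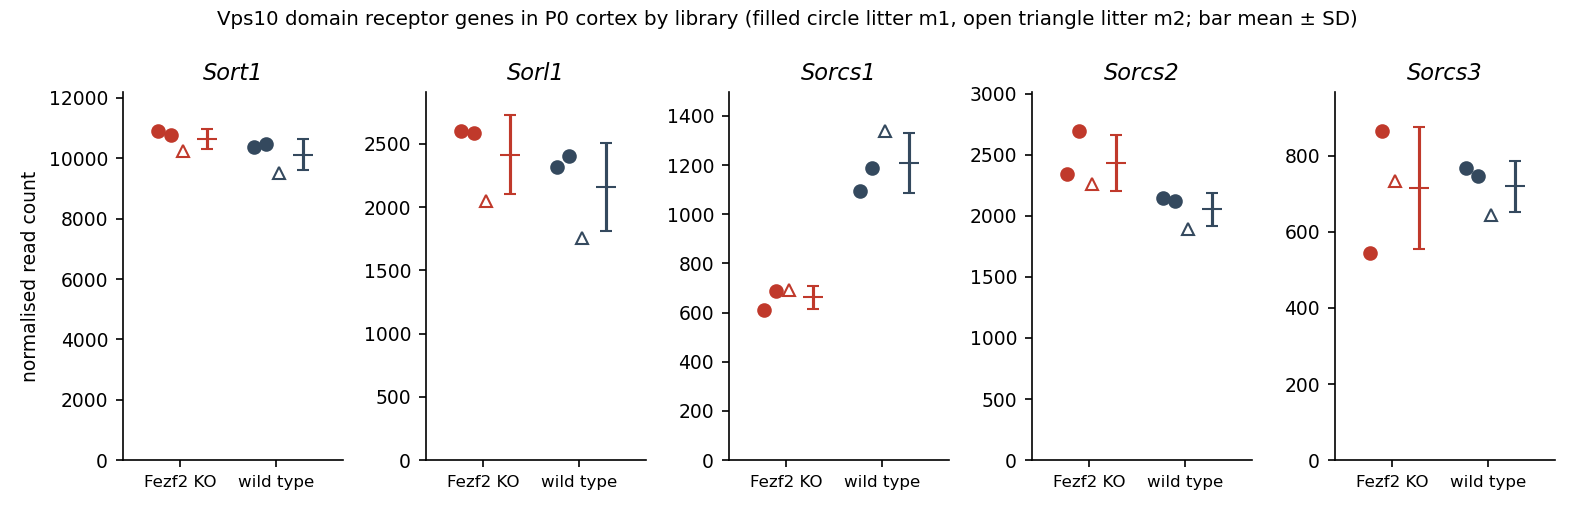
Normalised read counts of the 5 receptor genes in each library, with Fezf2 KO left of wild type, filled circles for litter m1, open triangles for litter m2, and bars for the mean ± SD (n = 3). Sorcs1 is at 609 to 693 in Fezf2 KO cortex and 1097 to 1337 in wild type cortex, and the litter m2 triangle is the lowest point of Sort1, Sorl1 and Sorcs2 in both genotypes.

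Both litter m2 libraries had a lower Sorl1 count than any of the 4 litter m1 libraries. This comparison does not use the genotype contrast, and it was chosen after the values were seen. Sorl1 had 2052 counts in the litter m2 library and 2587 and 2599 in the litter m1 libraries of Fezf2 KO cortex. In wild type cortex it had 1758 in litter m2 and 2319 and 2403 in litter m1. With genotype in the fit, the log2 ratio of litter m2 to litter m1 was -0.38 (SE 0.053) for Sorl1, the 8th smallest unadjusted p of all genes (0.00019), but with a limma adjusted p of 0.357. For litter 0 genes passed by limma (0.0%), the 1 tool run, and 1748 (9.96%) reached an unadjusted p below 0.05. Sort1 (log2 ratio -0.10, limma adjusted p = 0.457) and Sorcs2 (-0.16, 0.498) were lower in litter m2 too, and Sorcs1 (0.16, 0.559) was higher. Sort1, Sorl1 and Sorcs2, 3 of 5 members, lay below both litter m1 libraries in each genotype, as did 14.6% of all genes tested. Litter m2 is 1 library per genotype, so litter and single pups cannot be told apart.

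The genes most like each member over the 6 libraries were sought by Pearson's r on log2 counts among 11984 named genes with a mean of at least 50, as a description. Those nearest to Sorcs1 were Cidea (r = 0.995, and 0.905 after centring within genotype), Sec24d (0.992 and 0.956) and Oxsr1 (0.990 and 0.875). Sec24d encodes a coat protein of vesicles that leave the endoplasmic reticulum. It had 1608, 1663 and 1687 counts in the Fezf2 KO brains, against 2281, 2358 and 2398 in the wild type brains (log2 ratio -0.50, SE 0.055, limma adjusted p = 0.00594, and 0.111 in litter m1 alone). Cidea (log2 ratio -0.50, limma adjusted p = 0.114) and Oxsr1 (-0.17, 0.408) did not pass. These genes were picked for likeness to Sorcs1 over the same libraries, so their contrasts are not separate from that of Sorcs1.

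Sorcs3 was most like Pacsin1 (r = 0.995, also 0.995 after centring), Synj1 (0.992 and 0.994) and Rgs14 (0.99 and 0.99). Pacsin1 and Synj1 encode proteins that act in the retrieval of synaptic vesicle membrane. Pacsin1 had 2894, 4340.2 and 3759 counts in the Fezf2 KO brains, against 3827, 3896 and 3318 in the wild type brains. Like Sorcs3 it was lowest in Fezf2 KO 1 and highest in Fezf2 KO 2, but it was picked for this likeness over the same libraries. Slc17a7, a vesicular glutamate transporter gene picked from the cortical markers after its values were seen, was likewise lowest in Fezf2 KO 1 and highest in Fezf2 KO 2, with 5896, 10731 and 8717 counts, against 7890, 7343 and 6896 in wild type. Among the Fezf2 KO libraries the striatal markers also had their lowest and highest sums in libraries 1 and 2. Their part in the spread of Sorcs3 was not tested.

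Genes most like Sorl1 included Cebpa (r = 0.9995) and Lamp1 (0.993), which encodes a protein of the lysosome membrane. Those most like Sort1 included the microtubule regulator Camsap1 (0.993) and Cpm (0.992). Sorcs2 was most like Rfx7 (0.999), the plasma membrane calcium pump gene Atp2b4 (0.992) and Rprd2 (0.991). None of these 7 genes passed in the genotype contrast by limma, but they were picked for likeness to members that did not pass. Over these 6 libraries r lay above 0.95 for 50 to 90 of the 11984 genes per member.

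The genes that work with these receptors were taken from 5 lists of ligands, partner receptors, sorting machinery, processing enzymes and other sorting receptors. Of 87 genes tested, 1 fell and 0 rose by limma (1.15%, beside 0.712% of all genes), with a median log2 ratio of -0.0116. The genotypes of 20 of the 87 (23.0%) did not overlap, beside 14.5% of all genes. An unadjusted limma p under 0.05 was reached by 14 of the 87, beside 9.03% of all genes. The lists were chosen with earlier results of these data known. The gene that fell by limma was Ngfr, which encodes p75NTR, the partner of sortilin and SorCS2. It had 153, 168 and 133 counts in the Fezf2 KO brains, against 1205, 1491 and 1072 in the wild type brains (log2 ratio -3.04, SE 0.141, limma adjusted p = 6.02e-05). The other 14 partner receptors tested did not pass by limma, and the list's median log2 ratio was -0.01. In this list 1 gene passed by edgeR and 3 by DESeq2, and 5 reached an unadjusted p below 0.05. Beside Ngfr, DESeq2 called Ntrk3, the receptor of neurotrophin-3 (log2 ratio -0.33, DESeq2 adjusted p = 0.00737), and Lifr, a cytokine receptor (0.37, 0.0055). Neither gene overlapped between genotypes.

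Among 16 ligands tested 0 passed by limma (5 with an unadjusted p under 0.05, 0 by edgeR, 1 by DESeq2), with a median log2 ratio of -0.02. Lpl, lipoprotein lipase, which sortilin and SorLA both bind, had 5867, 4599 and 5480 counts in the Fezf2 KO brains, against 3429, 3952 and 3898 in the wild type brains. The genotypes did not overlap (log2 ratio 0.49, SE 0.096, limma adjusted p = 0.0774, DESeq2 adjusted p = 0.000107). Without Fezf2 KO 2 limma gave Lpl an adjusted p of 0.0246, and without each of the other libraries 0.165 to 0.271. Gdnf, a growth factor carried by SorLA, had 4.87, 18.0 and 8.83 counts in the Fezf2 KO brains, against 25.3, 29.7 and 25.8 in the wild type brains (limma adjusted p = 0.259). App, the amyloid precursor protein carried by SorLA, had 28832 ± 1304 in Fezf2 KO cortex and 30437 ± 609 in wild type cortex (SD, n = 3 each, limma adjusted p = 0.678). Grn, progranulin, had 3150 ± 118 and 3325 ± 220.0 in the same order (limma adjusted p = 0.84). App and Grn were named for their role, after their values were seen.

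Of 29 genes of the sorting machinery 0 passed by limma (2 with an unadjusted p under 0.05, 0 by edgeR, 2 by DESeq2), and the median log2 ratio was -0.02. Tbc1d5, a retromer partner that acts on Rab7, had 2623, 2648 and 3309 counts in the Fezf2 KO brains, against 4031, 4310 and 5174 in the wild type brains. Every Fezf2 KO library lay below every wild type library (log2 ratio -0.66, SE 0.116, limma adjusted p = 0.0564). With litter as a replicate block limma gave an adjusted p of 0.0027, and DESeq2 gave 6.37e-06, while edgeR with TMM gave 0.06. Without Fezf2 KO 3 the limma adjusted p of Tbc1d5 was 0.0463, and without each of the other libraries 0.068 to 0.153. Hspa12a, an adaptor of the SorLA tail, had 5507, 5743 and 5661 counts in the Fezf2 KO brains, against 6802, 7455 and 6657 in the wild type brains (log2 ratio -0.30, SE 0.055, limma adjusted p = 0.0576). These were the 2 genes that DESeq2 called.

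Of 13 processing enzymes 0 passed by limma (2 with an unadjusted p under 0.05, 0 by edgeR, 1 by DESeq2). Pcsk5, a proprotein convertase, had 292, 362 and 366 counts in the Fezf2 KO brains, against 502, 564 and 449 in the wild type brains (log2 ratio -0.57, SE 0.126, limma adjusted p = 0.117). Bace1, the beta-secretase that cleaves APP, averaged 8048 ± 87.8 in Fezf2 KO cortex and 7539 ± 168 in wild type cortex (SD, n = 3 each, log2 ratio 0.09, limma adjusted p = 0.553). Of 14 other sorting and endocytic receptors 0 passed by limma, by edgeR or by DESeq2, and 0 reached an unadjusted p below 0.05. Their lowest p values were those of the reelin receptor gene Lrp8 (log2 ratio 0.07, limma adjusted p = 0.69) and of Lrp4 (0.15, 0.692).

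**Figure D4:**
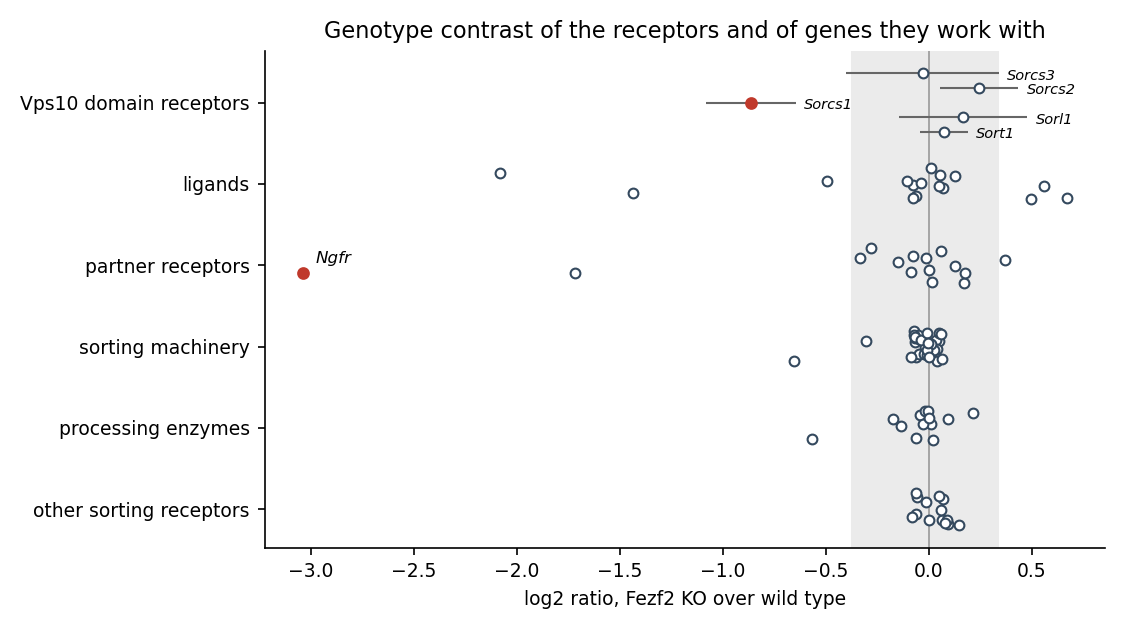
Log2 ratio of Fezf2 KO to wild type for the 5 receptor genes, with 95% intervals, and for the tested genes of 5 lists (1 point per gene, filled where limma passed, placed at arbitrary heights within a list). The grey band holds the central 90% of all genes tested (-0.37 to 0.33), and Sorcs1 at -0.86 and Ngfr at -3.04 are the filled points.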

How the data were processed

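Total RNA of 6 P0 cortices was made into TruSeq libraries and read on an Illumina Genome Analyzer II (stated in the labels). Bowtie, STAR, DESeq and the build mm9 appear, with no versions, per the submitters' processing notes. The signal deposited by the authors is the read count of a gene over the size factor of its library. The smallest step (0.812 to 0.936 units) gave back whole reads, with 100% of values up to 2000 reads within 0.1 of a whole read. A count of 0 allows up to 3 reads, for counting error only. Values were not scaled to length.

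Genes with at least 10 units in at least 3 libraries were tested. The design assumed limma on log2(value + 1) unless the file held raw counts, with genotype as the single term, trended variance and Benjamini-Hochberg adjustment over 17557 genes, called at 0.05. Alternatives were a pseudocount of 0.5, no filter, edgeR with TMM or RLE and DESeq2 on recovered reads, leaving out each library, litter m1 by itself, litter, which the labels give, as a replicate block, and coding length for levels. The litter contrast was added after the values were seen.

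The members and lists were chosen with earlier results of these data known. Named were Fezf2, the 5 members, up to 4 passing genes per list by p or else 2, and the 3 genes most like each member, of which some are not reported here. Replicates are separate pups. Of the listed genes Aph1b was not matched, and Ntf5 (for Ntf4) did not pass the filter. GRCm38 served for names, gene order, lengths and promoters only. Protein sequences were not used here. The steps were tested on simulated data. Software was Python 3.11.15, DESeq2 1.42.0, edgeR 4.0.16 and limma 3.58.1 under R 4.3.3.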

Additional observations from a re-analysis of the deposited data

How the results depend on the processing

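Sorcs1 was lower in Fezf2 KO cortex under each of the 13 alternatives and passed in 12, the exception being litter m1 alone (log2 ratio -0.82, limma adjusted p = 0.0900), where fewer libraries enter. Sort1, Sorl1 and Sorcs2 kept their direction and did not pass in any of them. Sorcs3 ranged from -0.18 to 0.15 with 1 library left out, turning positive without Fezf2 KO 1 and without wild type 1. The genes called over the whole table numbered 125 (71 higher, 54 lower) in the reported fit, 403 (242 and 161) by DESeq2, 25 (11 and 14) in litter m1 alone, and 60 to 128 (20 to 55 and 35 to 78) with 1 library left out. With litter as a replicate block they numbered 138, and Sorcs1 had a limma adjusted p of 0.00664. DESeq2 called 1 ligand (Lpl), 3 partner receptors (Ngfr, Ntrk3 and Lifr), 2 genes of the sorting machinery and 1 processing enzyme (Pcsk5). Tbc1d5 was the 1 gene of the sorting machinery called with the replicate block, and the 1 called in litter m1 alone. With 1 library left out, 0 to 1 ligands (Lpl, without Fezf2 KO 2) and 0 to 1 genes of the sorting machinery (Tbc1d5, without Fezf2 KO 3) were called. Per kilobase of coding sequence, Sorl1 ranked 4 and Sorcs1 ranked 3 in wild type cortex, against 3 and 4 per kilobase of transcript, a change that follows from the lengths. Members rest on 672 to 13410 reads per library, the fewest for Sorcs3.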
